A study of Mus musculus with 8 samples.

Results

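The wide peaks are the open chromatin regions of 1000 bp or more in an ATAC-seq peak set of mouse bone marrow-derived macrophages. They were chosen by width alone, as the end minus the start plus 1 in the authors' deposited table, and no measured level entered the choice. Of 74207 peaks, 3217 (4.34%) met this width and 70990 were narrower. The cells came from 2 wild-type C57Bl/6 mice and were grown from bone marrow in CMG medium with serum. Each mouse gave 1 library in each of 4 groups. These were unstimulated cells, cells given 1 µM fenoterol for 15 min, cells given 100 ng/mL LPS for 1 h, and cells given fenoterol for 15 min and then LPS for 1 h. All groups shared the wild-type genotype and the culture, and none carried a transgene or a deletion.

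ATAC-seq marks open chromatin through a transposase, Tn5, which cuts accessible DNA and adds sequencing adapters to it. Long stretches of open chromatin are often found at promoters rich in CpG and at clusters of enhancers in macrophages, while shorter stretches are more often single enhancers. LPS, a component of the bacterial outer membrane, acts through the receptor TLR4 and activates NF-κB and other factors that open enhancers of inflammatory genes within the first hours. Fenoterol activates the β2 adrenergic receptor, and signals from that receptor raise cyclic AMP in macrophages. The coordinates below are in the mm9 build. The files pair no peak with a gene and no mm9 annotation was used here, so each peak is named by its position, and the identity of the cells was not checked by marker genes.

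Levels are RPKM, the reads in a peak per kilobase of its length, normalised to the library's reads, divided by a scaling factor per library between 0.940 and 1.037. A bulk library cannot tell apart a site that is open in fewer cells from one that is less open in each cell. Because RPKM is an average over the whole peak, a change in a short stretch of a wide peak is spread over all of its length. Reads within peaks numbered 3164446 to 4040292 in 7 libraries, and 1426873 in the remaining one, from unstimulated cells of mouse 1. The shallow library has a bearing on every comparison with unstimulated cells, and its values are given beside those results.

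The wide peaks were tall and held a large part of the signal. Their median width was 1150 bp and their greatest 2617 bp, with 2966 peaks of 1000 to under 1500 bp and 251 of 1500 bp or more. They covered 3.88 Mb of the 34.7 Mb in peaks, or 11.2%, and held 20.7% of the reads in peaks. The median of their mean level over the 8 libraries was 49.3 RPKM (quartiles 34.1 and 67.1), against 16.3 RPKM for the narrower peaks (quartiles 11.8 and 26.6). The middle ranges of the 2 sets therefore did not meet.

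**Figure D1:**
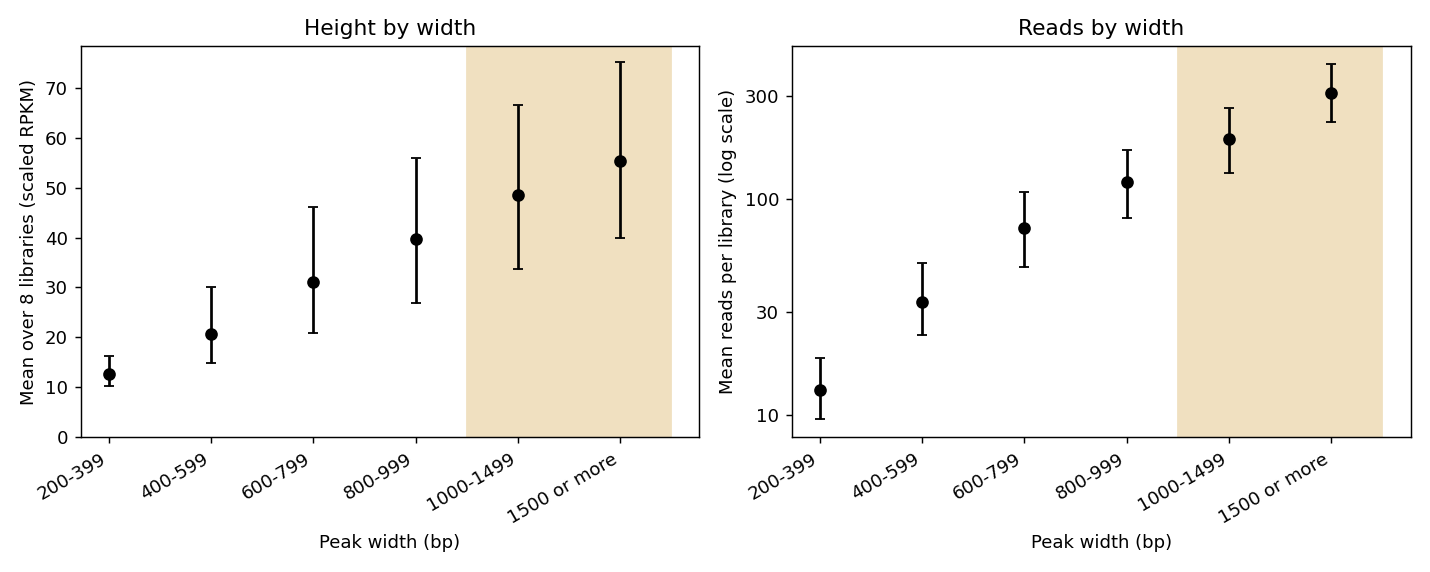
Mean level over 8 libraries in scaled RPKM (left) and mean reads per library on a log scale (right) for 6 classes of peak width in bp, as the median (point) and quartiles (bar) over peaks. The shaded classes are the wide peaks. The median level goes from 12.6 RPKM in peaks of 200 to under 400 bp to 55.3 RPKM in peaks of 1500 bp or more, and the median reads from 13 to 310.

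Height went up with width across all classes, as the plot of height by width shows, although RPKM already divides by length. Median levels were 12.6, 20.8, 31.1 and 39.7 RPKM in the 4 classes under 1000 bp, then 48.6 RPKM at 1000 to under 1500 bp and 55.3 RPKM above that. The rank correlation of width with height was 0.65 over all 74207 peaks and 0.13 within the wide peaks. Both are descriptions across peaks measured in the same libraries, and how the peak ends were set is not given in the sources used here.

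No step was seen at the threshold itself. The 73 wide peaks within 5 bp of it had a median of 41.5 RPKM and 143 reads per library. The 71 narrower peaks within 5 bp of it had a median of 42.2 RPKM and 142.75 reads.

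Wide peaks made up 319 of the 743 tallest peaks, the top 1% (42.9%), and 1788 of the 7421 in the top 10% (24.1%). Read the other way, 9.92% of the wide peaks stood in the top 1% and 55.6% in the top 10%. Low wide peaks were rare, since 74 of the 3217 (2.30%) lay under the median of all peaks, 16.9 RPKM. The lowest mean of a wide peak was 9.65 RPKM and the highest 220 RPKM.

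The tallest of all peaks was a wide one, chr12:119539371-119541038, of 1668 bp. Its levels in mouse 1 and mouse 2 were 353 and 185 RPKM in unstimulated cells, 218 and 186 with fenoterol, 220 and 202 with LPS, and 194 and 199 with fenoterol then LPS. The unstimulated library of mouse 1 stood far above the other 7, which lay close together. The next tallest, chr16:42874963-42876534 (1572 bp), had the same shape, with 248 and 150 RPKM in unstimulated cells and 154 to 175 RPKM in the other groups. The third, chr8:116158652-116159915 (1264 bp), measured 240 and 144 RPKM in unstimulated cells and 147 to 166 RPKM elsewhere. None of these passed the test in any comparison.

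The 5 widest peaks were chr5:109985723-109988339 (2617 bp), chr1:13362349-13364713 (2365 bp), chr19:12869135-12871450 (2316 bp), chr3:30992609-30994861 (2253 bp) and chr3:136332414-136334645 (2232 bp). Their mean levels were 137.5, 61.4, 85.6, 92.9 and 81.0 RPKM, all above the wide median of 49.3 RPKM. By height they ranked 18, 1023, 328, 231 and 421 among the 3217 wide peaks, so none was among the 3 tallest. The widest measured 166 and 122 RPKM in unstimulated cells, 143 and 124 with fenoterol, 144 and 134 with LPS, and 131 and 135 with both. Its groups overlapped throughout. None of the 5 passed a test, and their log2 differences for LPS against unstimulated cells lay between -0.12 and 0.13.

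Wide peaks were counted with many reads, which sets the precision of each value. The median wide peak held 88 reads in the shallow library (exact Poisson 95% interval 70.6 to 108, counting error only) and 189 to 237 reads in the others. The median narrower peak held 8 reads in that library (interval 3.45 to 15.8) and 20 to 27 in the others. No wide peak had fewer than 7 reads in any library, and none of their values rested on 1 read, against 6756 such values among the narrower peaks.

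The share of reads that fell in wide peaks was highest in the shallow library. It was 22.8% in the unstimulated library of mouse 1 and 20.5% in that of mouse 2, 21.4% and 20.3% with fenoterol, 21.0% and 20.7% with LPS, and 19.9% and 20.1% with fenoterol then LPS. The median level of a wide peak followed the same order at the top, with 55.4 RPKM in that library and 47.0 to 50.2 RPKM in the other 7. Narrower peaks had medians of 16.2 to 17.6 RPKM, and there the same library was the lowest.

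Between the 2 mice, wide peaks agreed closely in the groups with LPS and less so in unstimulated cells. On the scale of log2(RPKM + 4), used for all log2 values here, the median absolute difference between mice over the 3217 wide peaks was 0.235 in unstimulated cells, 0.129 with fenoterol, 0.0809 with LPS and 0.0795 with fenoterol then LPS. The narrower peaks gave 0.299, 0.223, 0.199 and 0.200. A difference between mice of 2-fold or more in RPKM + 4, which damps differences at low levels, occurred in 0 wide peaks in each of the 4 groups. It occurred in 3768, 1453, 1001 and 964 narrower peaks, which is 5.31%, 2.05%, 1.41% and 1.36% of them.

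**Figure D2:**
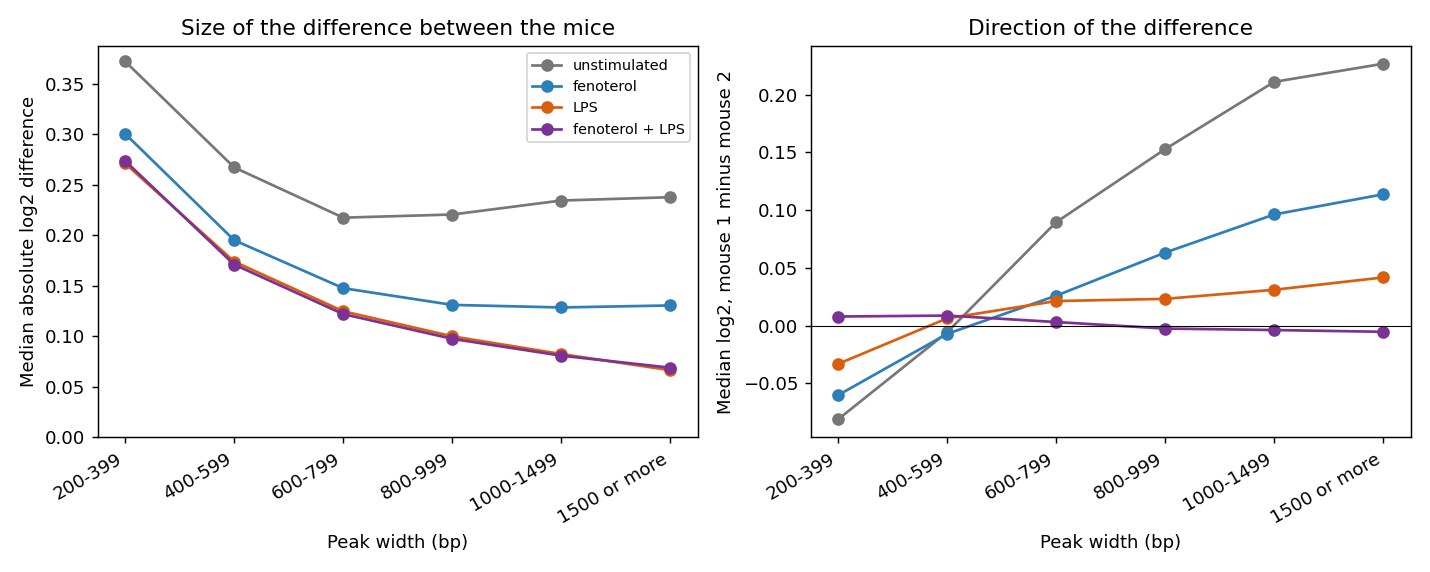
Median absolute log2 difference between the 2 mice (left) and median signed difference, mouse 1 minus mouse 2 (right), by peak width in bp, with 1 line for each group. In the LPS groups the size falls with width to below 0.07 at 1500 bp or more, while in unstimulated cells the signed difference of the wide classes reaches 0.21 to 0.23 toward mouse 1.

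The difference in unstimulated cells had a direction, as the right side of the stability plot shows. The median wide peak was higher in mouse 1 by 0.21 on the log2 scale in unstimulated cells and by 0.10 with fenoterol, against 0.03 with LPS and -0.004 with both agents. Over the narrower peaks the 4 medians lay between -0.015 and 0.007, which the scaling over all peaks, most of them narrower, largely sets. After that shift was taken out of each group, the median absolute differences of the wide peaks were 0.153, 0.0952, 0.0757 and 0.0800.

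The spread was also set against counting error. With the summed reads of the set made equal between mice, the mean squared difference in reads, divided by what Poisson counting alone gives, was 1.80 for wide peaks in unstimulated cells, 1.15 with fenoterol, 0.773 with LPS and 0.896 with fenoterol then LPS. For narrower peaks with at least 20 reads in the 2 libraries together it was 1.14, 1.07, 0.894 and 0.940. The ratio was largest in unstimulated cells, and values under 1, seen in both sets with LPS, lie under what Poisson counting gives, so the ratios are given as a description only.

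Library profiles over the wide peaks separated by LPS and not by fenoterol. Across wide peaks, the correlation of log2 levels was 0.966 to 0.982 in the 4 pairs of the same group and 0.967 to 0.981 in the 8 pairs that differed in fenoterol but not in LPS. It was 0.900 to 0.925 in the 16 pairs with and without LPS. The same ranges over narrower peaks were 0.851 to 0.889, 0.841 to 0.899 and 0.665 to 0.774. These are descriptions across peaks, and the narrower peaks carry more counting noise.

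LPS alone against unstimulated cells was tested with limma on all 66786 peaks that passed the filter on low levels, and all 3217 wide peaks were among them. A peak is said to have risen or fallen where its Benjamini-Hochberg adjusted p was under 0.05. Among the wide peaks, 91 rose (2.83%) and 83 fell (2.58%), where 6.53% of all peaks tested rose and 3.54% fell. A rise of 2-fold or more in RPKM + 4 was called in 24 wide peaks and a fall of that size in 1. Together these were 0.777% of the wide peaks, against 4.48% of narrower peaks and 4.30% of all. The median absolute log2 difference was 0.14 for wide peaks and 0.27 for narrower ones, with median standard errors of 0.15 and 0.24.

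The balance of rises and falls depended on the shallow library and on the scaling. The median wide peak stood at -0.09 in this comparison, with -0.19 in mouse 1 and 0.02 in mouse 2. With scaling factors taken from the wide peaks alone, chosen after seeing the data, 129 wide peaks rose (4.01%) and 41 fell (1.27%), against 6.69% and 1.84% of all peaks tested. When the shallow library was left out, 117 wide peaks rose (3.64%) and 29 fell (0.901%), against 5.33% and 1.85% of all. When the other unstimulated library, from mouse 2, was left out, 88 rose (2.74%) and 654 fell (20.3%), against 9.99% and 8.86% of all. With voom weights on the recovered reads, 132 wide peaks rose (4.10%) and 155 fell (4.82%), against 7.16% and 4.63% of all peaks tested.

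The 91 wide peaks that rose started low. Their median level was 25.5 RPKM in unstimulated cells and 23.9 with fenoterol, and 50.04 with LPS and 48.8 with fenoterol then LPS. In 90 of them the library with fenoterol then LPS was above the one with fenoterol alone in both mice. The 83 that fell started near the typical wide peak, at 49.0 and 42.0 RPKM without LPS, and stood at 31.2 and 31.4 RPKM with it. In 79 of these the library with fenoterol then LPS was below the one with fenoterol alone in both mice. Among the 3043 wide peaks not called, it was above in both mice in 18.3% and below in both in 45.8%. The median log2 difference was 0.72 for the risen peaks, up to 2.49, and -0.53 for the fallen ones, down to -1.74.

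The largest rise was at chr12:56588293-56589469, 1177 bp wide. Its levels in mouse 1 and mouse 2 were 6.98 and 8.17 RPKM in unstimulated cells, 8.80 and 8.52 with fenoterol, 62.1 and 59.4 with LPS, and 61.2 and 67.1 with fenoterol then LPS. All 4 libraries with LPS stood far above all 4 without it, and the libraries with and without fenoterol lay close together on each side. The log2 difference for LPS was 2.49 (SE 0.17, limma adjusted p = 1.45e-07).

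The second, chr16:84718045-84719259 (1215 bp), measured 13.5 and 8.71 RPKM unstimulated, 5.69 and 9.31 with fenoterol, 61.8 and 84.6 with LPS, and 53.1 and 71.2 with both. Here too the groups with and without LPS did not overlap, and mouse 2 was the higher in both LPS groups. The log2 difference was 2.35 (SE 0.21, limma adjusted p = 1.55e-06). All 4 of the narrower peaks tested within 10 kb of it rose as well.

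Other large rises had the same layout. The peak chr5:91333169-91334323 (1155 bp) measured 16.2 and 8.12 RPKM unstimulated, 7.34 and 10.9 with fenoterol, 65.5 and 59.4 with LPS, and 56.7 and 60.1 with both (log2 2.09, limma adjusted p = 3.4e-06). The peak chr12:112693459-112694924 (1466 bp) measured 17.3 and 13.0, 13.9 and 14.7, 60.4 and 61.2, and 61.7 and 67.4 RPKM in the same order of groups (log2 1.77, limma adjusted p = 1.36e-06). In each the mice agreed far more closely than the groups differed.

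The remaining 4 of the 8 largest rises were chr11:50010365-50011471 (1107 bp), chr3:152131598-152132854 (1257 bp), chr2:164247825-164249220 (1396 bp) and chr9:20833720-20834854 (1135 bp). Their mean levels went from 9.96, 5.73, 8.26 and 18.4 RPKM in unstimulated cells to 48.9, 28.5, 36.6 and 58.9 RPKM with LPS, and the log2 differences were 1.92, 1.74, 1.74 and 1.499. In 8 of the 8 largest rises every library with LPS was above every library without it, and all 8 rose with LPS after fenoterol too. Each was called under all 21 alternative settings tried for it.

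**Figure D3:**
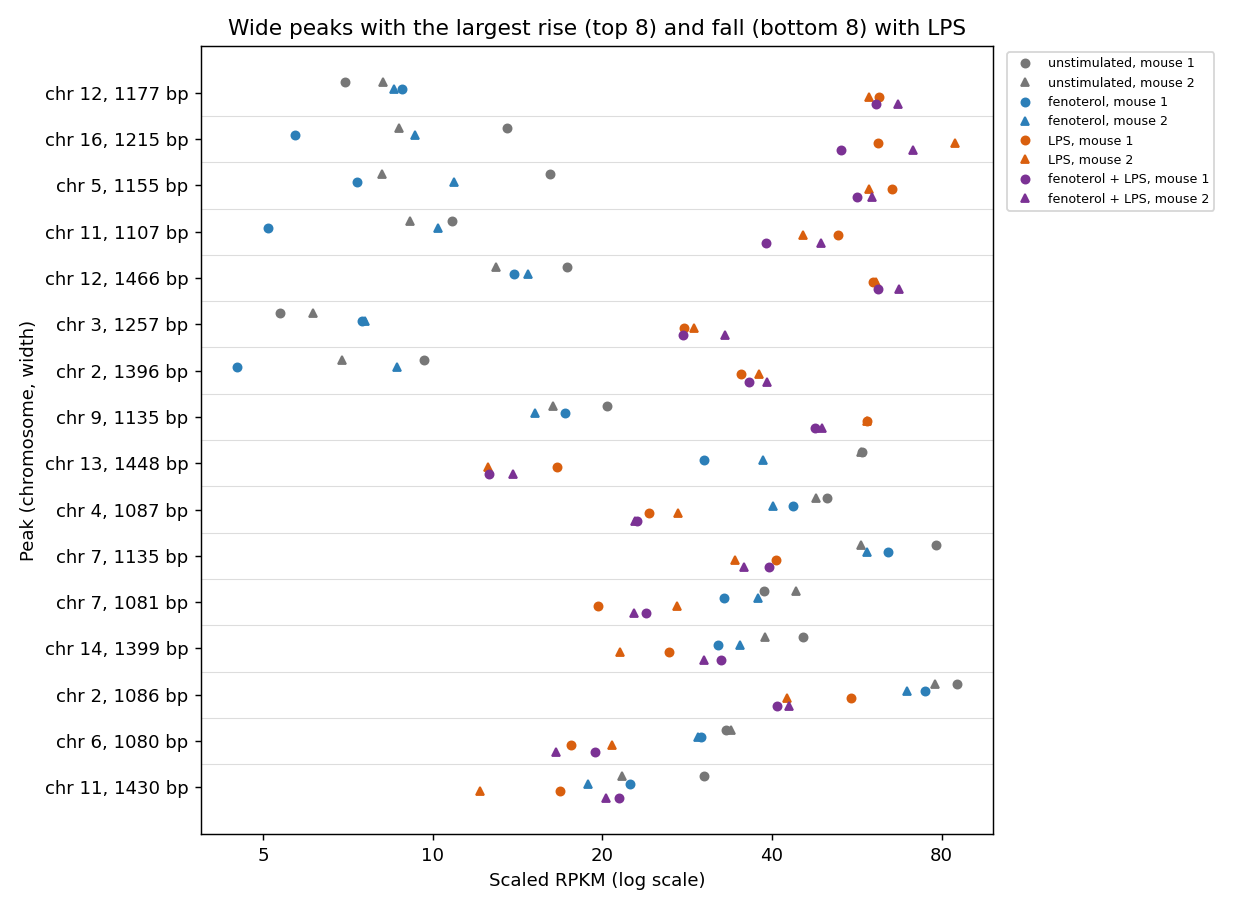
Scaled RPKM on a log axis in each of the 8 libraries for the 8 wide peaks with the largest rise (upper rows) and the 8 with the largest fall (lower rows), colour for group and marker shape for mouse. In the 8 rising peaks the LPS libraries form a separate cluster to the right, while in the 8 falling peaks the gap is smaller and in 2 of them the groups overlap.

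Falls were smaller, with 1 exception. The peak chr13:24908220-24909667 (1448 bp) measured 57.8 and 57.6 RPKM in unstimulated cells, 30.4 and 38.5 with fenoterol, 16.6 and 12.5 with LPS, and 12.6 and 13.9 with fenoterol then LPS. The fenoterol libraries lay between the unstimulated ones and the LPS ones, with no overlap. The log2 difference for LPS was -1.74 (SE 0.18, limma adjusted p = 4.06e-06), and the fall was called under all 21 alternatives. It had no other peak within 10 kb.

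The next, chr4:154608986-154610072 (1087 bp), measured 50.2 and 47.8, 43.6 and 40.2, 24.2 and 27.2, and 23.0 and 22.8 RPKM in the order unstimulated, fenoterol, LPS and both. The log2 difference was -0.84 (SE 0.14, limma adjusted p = 0.000713), and this fall also held under all 21 alternatives. The groups with and without LPS stood well apart.

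Of the other 6 large falls, chr7:128660242-128661376 (1135 bp), chr7:87259421-87260501 (1081 bp), chr2:145713720-145714805 (1086 bp) and chr6:86437136-86438215 (1080 bp) also fell with LPS after fenoterol. Their mean levels went from 68.0, 41.4, 81.5 and 33.5 RPKM in unstimulated cells to 37.5, 23.4, 48.9 and 19.2 RPKM with LPS, and their log2 differences ran from -0.78 to -0.70. Each of these 4 lost its call when 1 of the LPS libraries was left out. Without that of mouse 2, chr7:128660242-128661376 stood at log2 -0.67 (limma adjusted p = 0.0670) and chr2:145713720-145714805 at -0.52 (adjusted p = 0.133). Without that of mouse 1, chr7:87259421-87260501 stood at -0.54 (adjusted p = 0.124) and chr6:86437136-86438215 at -0.60 (adjusted p = 0.124). The first 3 of them were also lost without a mean trend (adjusted p = 0.0524 to 0.0576).

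The last 2, chr14:120970539-120971937 (1399 bp) and chr11:95703461-95704890 (1430 bp), behaved otherwise. The first measured 45.4 and 38.8 RPKM unstimulated, 32.1 and 35.1 with fenoterol, 26.3 and 21.5 with LPS, and 32.5 and 30.3 with both, so the libraries with both agents met those with fenoterol alone. It fell with LPS alone (log2 -0.73, limma adjusted p = 0.00391) and did not pass with LPS after fenoterol (adjusted p = 0.786). Without the LPS library of mouse 2 the first call was lost as well (log2 -0.60, limma adjusted p = 0.0904). The chr11 peak, at 26.0 RPKM unstimulated and 14.5 with LPS, had an adjusted p of 0.041 and was called in 10 of 21 alternatives.

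The tallest wide peaks were the least often called. In the lowest 804 peaks, 9.65 to 34.0 RPKM, 36 rose (4.48%) and 25 fell (3.11%), against 6.53% and 3.54% of all peaks tested. In the next 804 peaks 29 rose (3.61%) and 38 fell (4.73%), and in the 804 after them 21 rose (2.61%) and 19 fell (2.36%). In the highest 805, at 67.1 to 220 RPKM, 5 rose (0.621%) and 1 fell (0.124%). The median absolute log2 difference went down over the same 4 sets, from 0.19 through 0.15 and 0.13 to 0.12. From 30 to 80 RPKM the share called went down with height. This order turned when the unstimulated library of mouse 2 was left out, so that only the shallow library remained in that group. It held there when the shallow library was left out instead. With LPS after fenoterol against fenoterol alone, the share of wide peaks called was 11.04% at 10 to 20 RPKM and 7.18% at 20 to 30. From 30 RPKM up this share went down with height. It was 11.03% at 30 to 40 RPKM, 5.02% at 40 to 60 and 2.92% at 60 to 80.

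Because the wide peaks are tall, they were set beside narrower peaks of like height. Between 30 and 40 RPKM, 10.2% of wide and 16.9% of narrower peaks rose or fell with LPS. Between 40 and 60 RPKM the shares were 5.94% and 13.6%, and between 60 and 80 RPKM 2.00% and 6.05%. The lowest band was an exception, with 7.79% and 7.32% between 10 and 20 RPKM. From 30 to 80 RPKM the wide peaks were the less often called in each band, also with wide-peak scaling factors, with voom and without either unstimulated library.

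Set beside narrower peaks with like numbers of reads, the size and order of the gap depended on the band. From 50 to 100 reads per library, 7.32% of 355 wide and 15.8% of narrower peaks were called. From 100 to 200 reads the shares were 8.44% and 9.40%, and from 200 to 400 reads 2.88% and 1.68%. At equal reads a wide peak is a lower one, so height and reads cannot both be held equal. Both bands moved with other settings. At 100 to 200 reads the shares were 6.25% and 11.6% with wide-peak scaling factors, and 13.6% and 28.4% without the unstimulated library of mouse 2. At 200 to 400 reads the order turned to 7.24% and 8.52% with cyclic loess, and to 30.2% and 49.3% without that library. With voom the shares were 18.3% in each set from 50 to 100 reads, and 11.9% and 12.1% from 100 to 200.

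**Figure D4:**
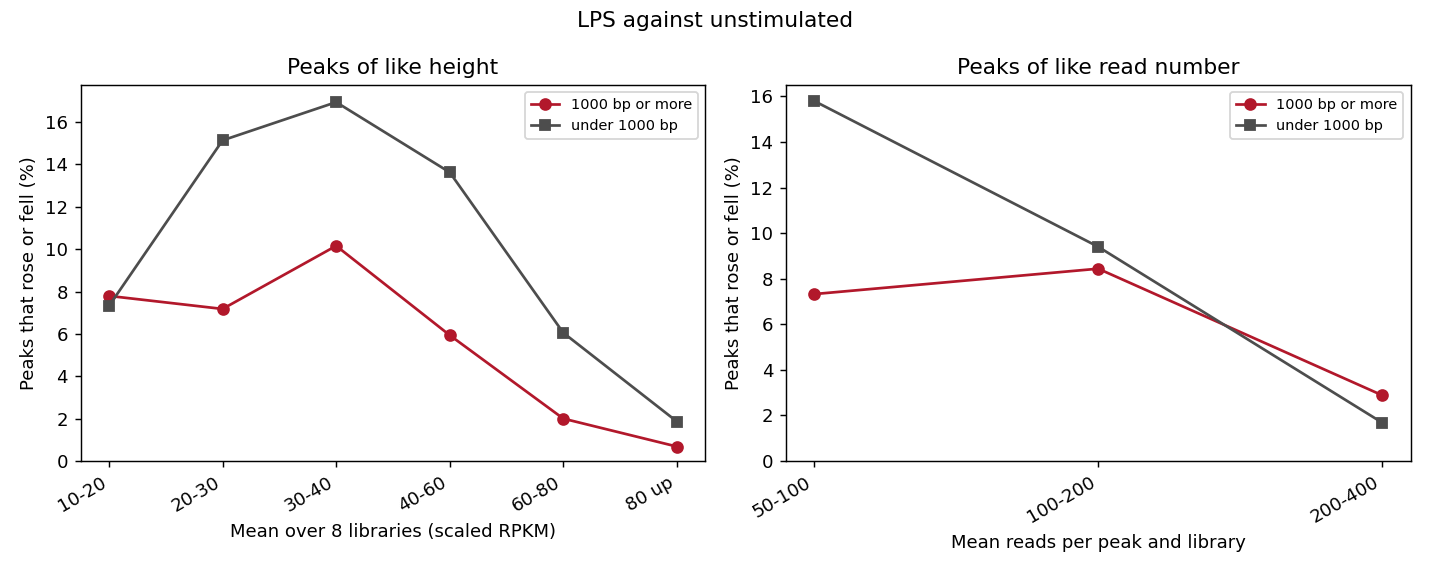
Share of peaks that rose or fell with LPS (percent, limma adjusted p under 0.05) among wide peaks and narrower peaks, in bands of mean scaled RPKM (left) and in bands of mean reads per peak and library (right). From 20 RPKM up the wide peaks lie below the narrower ones, while in the 2 upper bands of reads the shares are 8.44% against 9.40% and 2.88% against 1.68%.

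The single libraries were also compared without a model. All 4 libraries with LPS were above all 4 without it in 238 wide peaks (7.40%), against 12.3% of all peaks tested, and below them in 539 (16.8%), against 11.3% of all. So wide peaks lay below more often than all peaks did, although in limma they fell less often. With wide-peak scaling factors, 423 wide peaks (13.1%) were above, against 14.3% of all, and 339 (10.5%) below, against 7.63% of all. The order of the 2 shares within the wide peaks thus changed with the scaling.

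LPS was also tested in cells that had received fenoterol. This compares other libraries of the same mice than the comparison above. Both tests share 1 estimate of spread from all 8 libraries, so calls that repeat are not independent. By the stated times, the libraries with LPS were also taken 1 h later after fenoterol, and the part of time was not tested. Among the wide peaks 118 rose (3.67%) and 65 fell (2.02%), where 9.43% of all peaks tested rose and 4.32% fell. Of the 91 wide peaks that rose with LPS alone, 77 (84.6%) rose again and 0 fell. The 83 fallen ones gave 34 (41.0%) that fell again and 0 that rose, and their median log2 difference was -0.38 here against -0.53 there. For narrower peaks the repeated shares were 73.2% of the risen and 39.5% of the fallen. Without the fenoterol library of mouse 1, 63 wide peaks rose (1.96%) and 8 fell (0.249%), against 4.53% and 1.04% of all peaks tested. With wide-peak scaling factors 174 rose (5.41%) and 40 fell (1.24%), against 9.84% and 2.74% of all.

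Wide peaks were also called less often than narrower ones in cells with fenoterol. Of the wide peaks 5.69% were called, against 14.2% of the narrower ones. At 30 to 40 RPKM the shares were 11.03% and 20.3%, at 40 to 60 RPKM 5.02% and 15.2%, and at 60 to 80 RPKM 2.92% and 7.61%. At 100 to 200 reads per library they were 8.59% and 11.4%, but at 200 to 400 reads, which held 1353 wide peaks, 3.18% and 2.04%. The wide share was the lower one under 20 of 20 settings here, and under 19 of 20 for LPS against unstimulated cells. The exception left out the unstimulated library of mouse 2, and gave 23.1% of wide and 18.6% of narrower peaks.

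Fenoterol alone moved no wide peak past the threshold. In limma, 0 of 3217 were called, with 42 at an unadjusted p under 0.05 and a smallest adjusted p of 0.234, and 0.00749% of all peaks tested were called. With voom, 3 wide peaks were called, 1 higher and 2 lower, against 0.0464% of all peaks tested. The median wide peak stood at -0.09, with -0.15 in mouse 1 and -0.02 in mouse 2, relative to a scaling set mostly by narrower peaks. With a median standard error of 0.15, small differences were not detectable in single peaks. When mouse 2 was left out of the unstimulated group, so that only the shallow library remained in it, 331 were called, against 5.42% of all peaks tested, and 330 of them were lower.

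The wide peak with the smallest p for fenoterol was chr10:120319238-120320283, 1046 bp wide. It measured 17.9 and 19.3 RPKM in unstimulated cells, 40.2 and 35.4 with fenoterol, 16.0 and 13.5 with LPS, and 14.5 and 16.8 with fenoterol then LPS. The fenoterol libraries were the highest 2 of the 8, and the libraries that had LPS after fenoterol were back among the rest. The log2 difference was 0.89 (SE 0.20), with a limma adjusted p of 0.234 and a voom adjusted p of 0.000644. It fell with LPS after fenoterol against fenoterol alone (log2 -1.09, limma adjusted p = 0.000718). That comparison also spans a further 1 h since fenoterol was given, and the part of time was not tested.

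**Figure D5:**
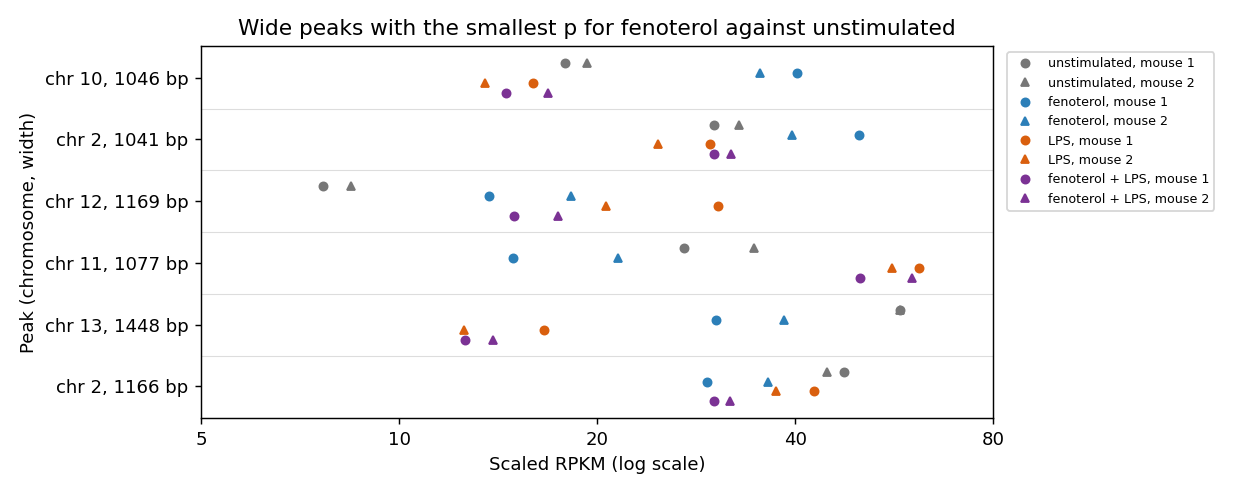
Scaled RPKM on a log axis in each of the 8 libraries for the 6 wide peaks with the smallest p for fenoterol against unstimulated cells, 3 higher (upper rows) and 3 lower (lower rows), colour for group and marker shape for mouse. In the top row the fenoterol libraries, at 40.2 and 35.4 RPKM, stand apart from the other 6, which lie between 13.5 and 19.3 RPKM.

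The other peaks leaning upward were chr2:6399316-6400356 (1041 bp), at 30.1 and 32.8 RPKM unstimulated and 50.1 and 39.5 with fenoterol, and chr12:40925906-40927074 (1169 bp), at 7.67 and 8.43 RPKM unstimulated and 13.7 and 18.3 with fenoterol. Their limma adjusted p-values were 0.552 and 0.563. In both peaks the fenoterol libraries were above the unstimulated ones without overlap, which a choice by smallest p favours, so it adds no support. The chr12 peak measured 30.5 and 20.6 RPKM with LPS alone, a rise (limma adjusted p = 0.00254), and 14.9 and 17.4 with fenoterol then LPS.

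Those leaning downward were chr11:81850951-81852027 (1077 bp), chr13:24908220-24909667 and chr2:152614500-152615665 (1166 bp). The chr11 peak measured 27.0 and 34.6 RPKM unstimulated, 14.9 and 21.5 with fenoterol, 61.8 and 56.1 with LPS, and 50.2 and 60.1 with both. Its limma adjusted p was 0.348 for fenoterol and its voom adjusted p 0.0169. It rose with LPS alone (limma adjusted p = 0.00184) and with LPS after fenoterol (log2 1.43, adjusted p = 9.09e-06), and 4 of the 7 narrower peaks tested within 10 kb of it rose with LPS. For the chr13 peak, the largest fall with LPS, the fenoterol difference was -0.69 on the log2 scale (limma adjusted p = 0.355, voom adjusted p = 0.00416).

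Fenoterol before LPS was set against LPS alone. No wide peak passed in limma (0 of 3217, with 18 at an unadjusted p under 0.05 and a smallest adjusted p of 0.632), and 0.00% of all peaks tested were called. With voom 2 wide peaks passed, 1 higher and 1 lower, against 0.596% of all peaks tested. The median wide peak stood at -0.06, with -0.08 in mouse 1 and -0.05 in mouse 2, while the median of the narrower peaks was 0.001. In mouse 1 26.9% and in mouse 2 35.7% of wide peaks were higher with fenoterol before LPS, against 50.8% and 50.9% of narrower peaks. The scaling factors were medians over all peaks, 95.7% of them narrower. A narrower median near 0 was thus largely set by the scaling, and the lean of the wide peaks is relative to it.

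The wide peak leaning highest was chr16:42676627-42678080 (1454 bp), at 25.3 and 16.8 RPKM with LPS and 34.1 and 27.6 with fenoterol then LPS. The log2 difference was 0.49 (limma adjusted p = 0.632, voom adjusted p = 0.0406). The peak chr13:75962065-75963133 (1069 bp) was even in 3 groups, at 27.1 to 30.0 RPKM, and measured 38.1 and 38.6 RPKM in the group with both agents (adjusted p = 0.633). The other peaks leaning upward by the same rule were chr8:86715801-86716817 and chr14:120970539-120971937.

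Among those leaning downward, chr10:51216499-51217594 (1096 bp) measured 24.5 and 30.1 RPKM unstimulated, 18.0 and 22.5 with fenoterol, 59.9 and 55.9 with LPS, and 44.8 and 42.3 with both. The libraries with both agents lay between those with LPS alone and those without LPS. The log2 difference for fenoterol before LPS was -0.38 (limma adjusted p = 0.649), and the peak rose with LPS alone (adjusted p = 0.000248). The others were chr2:150864465-150865600, chrX:75828191-75829504 and chr2:152614500-152615665.

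Whether the response to LPS differed with fenoterol was tested as an interaction. The interaction also holds the longer time since fenoterol in the group with both agents, whose part was not tested. It was past the threshold in 0 wide peaks in limma, with 17 at an unadjusted p under 0.05, a smallest adjusted p of 0.595 and 0.00% of all peaks tested called. With voom 1 wide peak passed, chr12:40925906-40927074, at an adjusted p of 0.00358, against 0.00599% of all peaks tested. Its interaction was -1.25 on the log2 scale (SE 0.36) in limma.

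Wide peaks stood somewhat apart from other peaks along the chromosomes. The median distance to the nearest peak was 7120 bp for wide and 4792 bp for narrower peaks, and 34.9% of wide peaks had no other peak within 10 kb, against 27.6% of narrower ones. Whether close peaks were joined when the set was made is not given in the sources used here. For 85 wide peaks (2.64%) another wide peak lay within 10 kb.

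The narrower peaks near risen wide peaks rose in a larger share than those near other wide peaks. Within 10 kb of the 91 risen wide peaks lay 175 narrower peaks tested, of which 59 rose (33.7%) and 2 fell. Within 10 kb of the 83 fallen ones lay 128, of which 8 rose (6.25%) and 15 fell (11.7%). Around the 3043 wide peaks that were not called, 302 of 3146 rose (9.60%) and 156 fell (4.96%). Over all narrower peaks tested, 6.72% rose and 3.59% fell. Around the 8 largest rises, 15 of 24 such neighbours rose and 0 fell.

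All chromosomes with peaks held wide ones. Their share of the peaks ran from 3.46% on chromosome 15 to 5.13% on chromosome 7 among the autosomes, and was 5.05% on the X.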

How the data were processed

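ATAC-seq was done on 8 libraries, 2 mice by 4 groups. The submitters' processing notes name cutadapt, Bowtie2, MACS2 and HOMER, without versions, and the mm9 build. How duplicates, mitochondrial reads and Tn5 offsets were handled, and whether peaks were called on pooled reads, is not given in the sources used here. RPKM was deposited by the authors, per peak and library on 1 shared peak set. Whole reads were recovered from the RPKM steps (100% of values within 0.01 read of a whole number).

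Here RPKM was divided by median-ratio scaling factors, the 10% of peaks with the lowest mean (7421, under 9.71 RPKM) were left out, and log2(RPKM + 4) was fitted with limma 3.58.1 (lmFit and eBayes with a mean trend, R 4.3.3) over all 66786 peaks and 8 libraries, with 4 residual degrees of freedom. Benjamini-Hochberg adjustment covered all peaks tested. limma's voom on the recovered reads was an alternative, and depth and its Poisson intervals come from those reads. The script was tested on simulated data.

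Named peaks are the 5 widest, the 3 tallest, the 8 largest rises and 8 largest falls with LPS that passed the test and moved alike in both mice, and, for fenoterol, the smallest unadjusted p-values in each direction (3 without LPS, 4 with it). Peaks named for the interaction were chosen after their values were seen. Members and tests were chosen with earlier results of these data known. Gene and marker lists could not be applied without an mm9 annotation. Alternatives covered scaling, pseudocount, filter, width, variance trend, left-out libraries and a mouse block. Same-numbered libraries come from the same mouse per the labels. Their deviations from the group means correlated by 0.0895 to 0.350 over the wide peaks, and by 0.0231 to 0.0727 over all peaks tested.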

Additional observations from a re-analysis of the deposited data

Results flagged for a closer look

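In 5 wide peaks named above, the difference had 1 sign in both mice in 1 setting of a contrast and the opposite sign in both mice in the other setting. With limma, the interaction that tests these differences was past the threshold in none of them.

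For LPS this was seen in 2 of them. At chr13:75962065-75963133 the difference was next to 0 without fenoterol, -0.0048 and -0.0037 on the log2 scale in the 2 mice, so its sign there carries no weight, and 0.36 and 0.42 after fenoterol, a difference of 0.39 (interaction adjusted p = 0.831). At chr2:150864465-150865600 it was 0.33 and 0.11 without fenoterol and -0.17 and -0.07 after it, a difference of -0.34 (adjusted p = 0.837).

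For fenoterol it was seen in the other 3. At chr14:120970539-120971937 it was -0.45 and -0.13 without LPS and 0.27 and 0.43 with LPS, a difference of 0.64 (adjusted p = 0.674). At chr11:95703461-95704890 it was -0.38 and -0.17 without LPS and 0.29 and 0.59 with LPS, a difference of 0.71 (adjusted p = 0.756). At chr12:40925906-40927074 it was 0.60 and 0.84 without LPS and -0.87 and -0.20 with LPS, a difference of -1.25 (adjusted p = 0.595, and 0.00358 with voom).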

How the results depend on the processing

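For LPS against unstimulated cells, the 174 wide peaks called became 102 in a fit on the 4 libraries compared, 53 without a mean trend, 287 with voom, 44 to 742 with 1 library left out, 8 of the 251 peaks of 1500 bp or more and 452 of those of 800 bp or more. For LPS after fenoterol, the 183 became 92 without a mean trend, 331 with quantile normalization, 345 with voom, 71 to 312 with 1 library left out, 8 at 1500 bp and 538 at 800 bp. For fenoterol alone, 0 became 1 with a trend over mean reads, 3 with voom and 0 to 331 with 1 library left out. For fenoterol before LPS, 0 became 2 with voom, and for the interaction 0 became 1 with voom and 0 to 7 with 1 library left out. Voom and the trend over reads weigh peaks by counts, and the causes of the other shifts were not tested. The narrower peaks moved with the settings too. For LPS against unstimulated cells 10.3% of them were called, 6.07% without a mean trend and 11.9% with voom, where the wide shares were 5.41%, 1.65% and 8.92%. For LPS after fenoterol 14.2% were called, 10.3% without a mean trend and 19.6% with voom, where the wide shares were 5.69%, 2.86% and 10.7%. With the mouse as a block, for the paired libraries, the counts were 201, 209, 0, 0 and 0, and no count moved by more than 1.5 times. Size factors from wide peaks, cyclic loess and the trend over reads were chosen after seeing the data.

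At 800 bp and 1500 bp the median level was 43.5 and 55.3 RPKM, and the share of reads, as a mean of the library shares (20.8% for the wide peaks), 37.1% and 2.59%. The median absolute difference between mice with LPS, 0.0802 over both groups, was 0.0907 at 800 bp, 0.0677 at 1500 bp, 0.0783 in RPKM as deposited and 0.0794 to 0.0814 with 1 library left out. Of 671 refits of 32 results on named peaks, 644 kept their direction and side of the threshold, 8 gained a call, 19 lost one and 0 reversed. Refits that changed only the filter, the variance trend or the mouse block left the log2 difference unchanged, so they could not reverse it. The peaks were also picked as extremes of these same data, so the lack of reversals says little. With 2 mice a group and 1 shallow library, the difference that a single wide peak could show was limited.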
